A study of Mus musculus with 24 samples.

Results

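The centromere-proximal autosomal regions are the listed regions of 16 mouse autosomes (all but chromosomes 11, 13 and 19) whose end coordinate lies below 10000000 in build mm10. The rule found 1021 regions of the 53386 listed, and the 43798 other regions of the same 16 chromosomes served as the comparison. The rule rests on position alone, but it was chosen with earlier results of these data known. The counts come from hearts of 6 C57BL6 mice, 3 female and 3 male, aged 12 months. All 6 went through ischemic preconditioning, in which the left coronary artery was closed for 5 min and reopened for 5 min in 4 cycles before a last reperfusion of 30 min. Each mouse gave a biopsy of the area at risk, the muscle fed by the closed artery, and one of remote myocardium. From each biopsy an H3K9me2 chromatin immunoprecipitation and the input chromatin were sequenced, so 24 libraries fall into 4 groups of 6. Every mouse was preconditioned, sham hearts were not analysed here, and remote myocardium belongs to the same operated hearts. The biopsies are whole tissue, so more cells with the mark and more mark per cell cannot be told apart.

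H3K9me2 is dimethylation of histone H3 at lysine 9, a mark of silent chromatin that is laid over broad stretches between and within inactive genes and is low at active promoters. Mouse autosomes carry their centromere at one end, the end from which coordinates are counted. The centromere itself and its flanking satellite repeats, packed in heterochromatin marked mainly by trimethylation of the same lysine, form a gap in the assembly, so the regions described here lie in the first unique sequence after that gap.

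The first member starts between base 3004200 (chromosome 12) and base 4586400 (chromosome 1) and members are spread unevenly, with 221 on chromosome 17, 159 on chromosome 16, 123 on chromosome 12, and 108 on chromosome 7, down to 10 on chromosome 1 and 9 on chromosome 9. Their median width is 2400 bases, against 2600 for the rest. By class, 38.8% lie within 2 kb of an end of a gene (gene end), 43.9% elsewhere inside a gene (gene body) and 17.3% outside genes (intergenic). The rest is made up alike, with 39.5% gene end, 44.4% gene body and 16.1% intergenic. Members reach 427 of the 1491 genes annotated below the limit, 318 of them protein coding. In 80 members (7.83%) no library has a read, against 4287 (9.79%) of the rest. 313 members (30.7%) overlap another listed region, against 38.6% of the rest, and reads there can be split between regions. Where regions stand alone, members held a median of 249 reads per kb over the 24 libraries, against 257 in the rest. The last members end just inside the limit, on chromosome 8 at 9979799 and on chromosome 17 at 9978199, and the first regions left out end at 10012399 on chromosome 3 and at 10048599 on chromosome 2.

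The windows of sequence before annotated gene starts are shown because they lie wholly inside members on opposite sides of the H3K9me2 range described below. They are the 250 bases before the start in RefSeq (GRCm38.p6, the assembly of mm10), written 5′ to 3′ on the strand of the gene. Capitals mark CpG dinucleotides. The windows of Arid1b (a subunit of the BAF chromatin remodelling complex), Elavl1 (the RNA-binding protein HuR), Ubald1 (a protein with a UBA-like domain) and Dnmt3a (a de novo DNA methyltransferase) lie in members depleted of H3K9me2 in one biopsy or both. The window of LOC115490388, annotated as a long noncoding RNA, lies in an enriched one.
Arid1b, chr17:4994824-4995073, + strand: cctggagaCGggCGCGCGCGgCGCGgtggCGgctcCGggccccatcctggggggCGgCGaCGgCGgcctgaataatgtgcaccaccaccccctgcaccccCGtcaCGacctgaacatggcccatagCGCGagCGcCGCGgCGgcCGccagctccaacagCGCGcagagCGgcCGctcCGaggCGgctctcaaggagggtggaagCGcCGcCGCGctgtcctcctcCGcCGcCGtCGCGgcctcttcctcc
Elavl1, chr8:4325101-4325350, - strand: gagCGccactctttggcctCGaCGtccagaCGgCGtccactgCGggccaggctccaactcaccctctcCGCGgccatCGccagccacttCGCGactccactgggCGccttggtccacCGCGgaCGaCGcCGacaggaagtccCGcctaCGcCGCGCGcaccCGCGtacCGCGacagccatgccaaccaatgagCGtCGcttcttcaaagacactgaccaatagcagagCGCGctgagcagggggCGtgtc
Ubald1, chr16:4879852-4880101, - strand: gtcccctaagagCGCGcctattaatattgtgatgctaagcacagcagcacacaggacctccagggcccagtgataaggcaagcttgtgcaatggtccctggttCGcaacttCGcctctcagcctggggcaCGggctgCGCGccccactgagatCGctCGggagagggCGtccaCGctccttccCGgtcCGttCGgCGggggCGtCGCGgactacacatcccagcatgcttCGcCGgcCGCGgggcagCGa
Dnmt3a, chr12:3891494-3891743, + strand: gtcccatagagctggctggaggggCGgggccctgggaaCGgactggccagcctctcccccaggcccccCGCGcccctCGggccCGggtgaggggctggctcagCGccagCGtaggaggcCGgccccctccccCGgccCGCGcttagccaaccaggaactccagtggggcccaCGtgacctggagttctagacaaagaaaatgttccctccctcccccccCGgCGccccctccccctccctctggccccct
LOC115490388, chr6:3182866-3183115, + strand: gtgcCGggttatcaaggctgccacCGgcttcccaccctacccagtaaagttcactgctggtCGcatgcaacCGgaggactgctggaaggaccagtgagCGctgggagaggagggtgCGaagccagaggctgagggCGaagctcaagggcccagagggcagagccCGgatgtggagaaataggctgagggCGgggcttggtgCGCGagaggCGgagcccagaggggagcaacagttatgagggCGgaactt

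In number of CpGs these windows hold 37 for Arid1b, 31 for Elavl1, 23 for Ubald1, 15 for Dnmt3a and 13 for LOC115490388. Other windows, not printed, lie in depleted members named below. Of these, Ccl25 holds 45 CpGs, Epn1 21 and 22, Map2k7 19 and 0, Nudt16l1 12, D630041G03Rik 5 and Gm16861 4. The number of CpGs therefore does not separate the depleted members from the enriched one. The motif searched was CG, which reads the same on both strands, and 92.1% of the 32817 windows of the same length before all listed starts hold at least 1. Of all starts, 174 windows fell wholly inside 123 member regions. Their median CpG count was 18 and median GC content 65.0%, against 14 and 60.8% for the 6328 windows inside regions of the rest and 6 and 52.4% for all windows. A ratio of observed to expected CpG of at least 0.6, called CpG-rich below, was found in 64.4% of the member windows, 56.2% of those of the rest and 33.9% of all.

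Centromere-proximal regions took a slightly larger share of the H3K9me2 reads than of the input reads in both biopsies and in every mouse. In the area at risk, members held 2.02% to 2.34% of the H3K9me2 counts on the 16 chromosomes (median 2.16%), against 1.92% to 2.12% of the input counts (median 2.03%). In remote myocardium, the share was 2.11% to 2.29% in H3K9me2 (median 2.17%), against 1.97% to 2.05% in input (median 2.01%). The H3K9me2 and input groups overlap in the area at risk and do not overlap in remote myocardium. Within a mouse, the ratio of member counts to counts in the rest was 1.07-fold higher in H3K9me2 than in input in the area at risk, a log2 ratio of 0.099 ± 0.030 (SD, n = 6), from 0.071 to 0.15. It was 1.09-fold higher in remote myocardium, at 0.12 ± 0.038 (SD, n = 6), from 0.085 to 0.18. The sign was positive in 6 of 6 mice in each biopsy. These ratios sum over chosen members and are given as a description, without a test. A pair of dense members, chr17:3076200-3084999 (1015 reads per kb over the 24 libraries, 1.81% of all member reads) and chr3:5860200-5860999 (5290 reads per kb, 0.858%), stands above the member median of 231 reads per kb. Without both, the ratios were 0.091 and 0.11. Behind them lie 7725 to 20423 member counts per H3K9me2 library and 22904 to 40093 per input library of the area at risk, with 8298 to 17542 and 23752 to 30526 for remote myocardium. The area at risk minus remote myocardium came to -0.020 ± 0.047 on the log2 scale (SD, n = 6), above 0 in 2 of 6 mice, so the size of the difference lay below its spread between mice. With each mouse left out it ran from -0.030 (without mouse 17) to -0.0020 (without mouse 23).

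**Figure D1:**
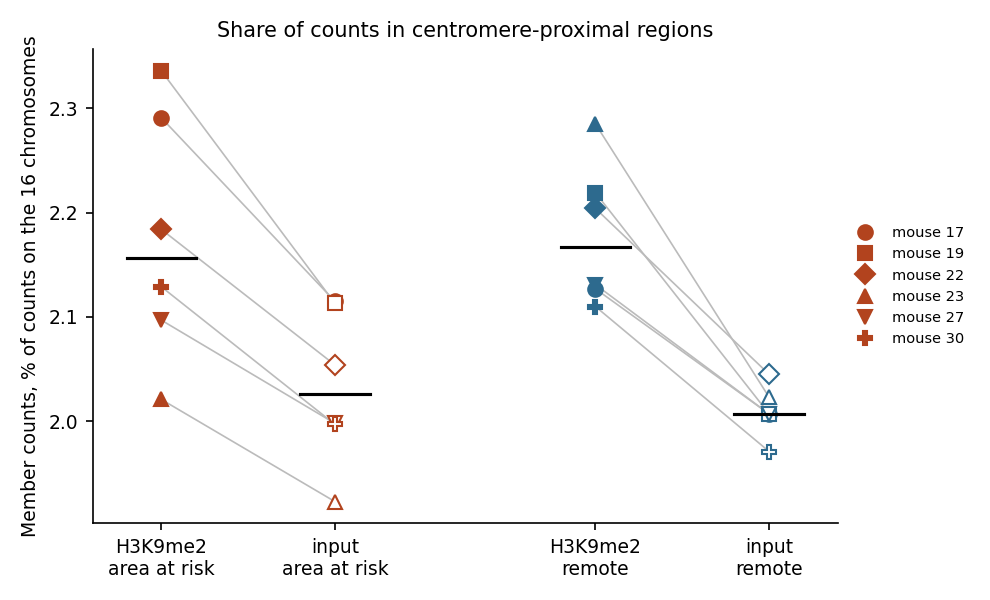
Member counts as a percentage of all counts on the 16 chromosomes, 1 symbol per mouse, with lines joining H3K9me2 and input of the same mouse and black bars at group medians. All 12 lines slope down to input; the medians are 2.16% and 2.03% in the area at risk and 2.17% and 2.01% in remote myocardium.

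The summed share follows neither the limit nor the chromosomes evenly. With the limit at 5 Mb the log2 ratio was 0.046 in the area at risk and 0.048 in remote myocardium, and with the limit at 20 Mb it was 0.039 and 0.052. It did not climb steadily toward the centromeric end. In steps of 1 Mb, members ending between 3 and 4 Mb had a log2 ratio of 0.17 ± 0.072 in the area at risk and 0.20 ± 0.057 in remote myocardium (SD, n = 6). The next step, 4 to 5 Mb, lay below 0 in all mice, at -0.044 ± 0.024 and -0.064 ± 0.030. That step is the one richest in gene ends, which make up 49.2% of its 250 regions, and 10.4% of them are intergenic. From 5 to 9 Mb the steps lay between -0.020 and 0.15 in the area at risk, and between 0.070 and 0.16 in remote myocardium. The highest step was the last one below the limit, 9 to 10 Mb, with 0.27 ± 0.066 and 0.36 ± 0.12 over 57 regions. Just outside the limit, the 134 regions ending between 10 and 11 Mb stood at 0.20 ± 0.055 and 0.21 ± 0.049, so the limit itself marks no edge in the signal.

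Along whole chromosomes, other stretches lay as high. Taken in 20 steps of 10 Mb over the same 16 chromosomes, the first step ranked 4th from the highest in both biopsies, at 0.097 ± 0.029 and 0.12 ± 0.037 (SD, n = 6). The steps starting at 60, 170 and 190 Mb were higher, at 0.12, 0.20 and 0.14 in the area at risk and 0.14, 0.22 and 0.22 in remote myocardium. Of those, the steps at 170 and 190 Mb hold regions of 2 and 1 chromosomes, and the step at 60 Mb of all 16. The step next to the members, from 10 to 20 Mb, was close to 0, at 0.00011 ± 0.011 and 0.0097 ± 0.015, and the one from 20 to 30 Mb was below 0 in all mice, at -0.062 ± 0.016 and -0.078 ± 0.0093.

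**Figure D2:**
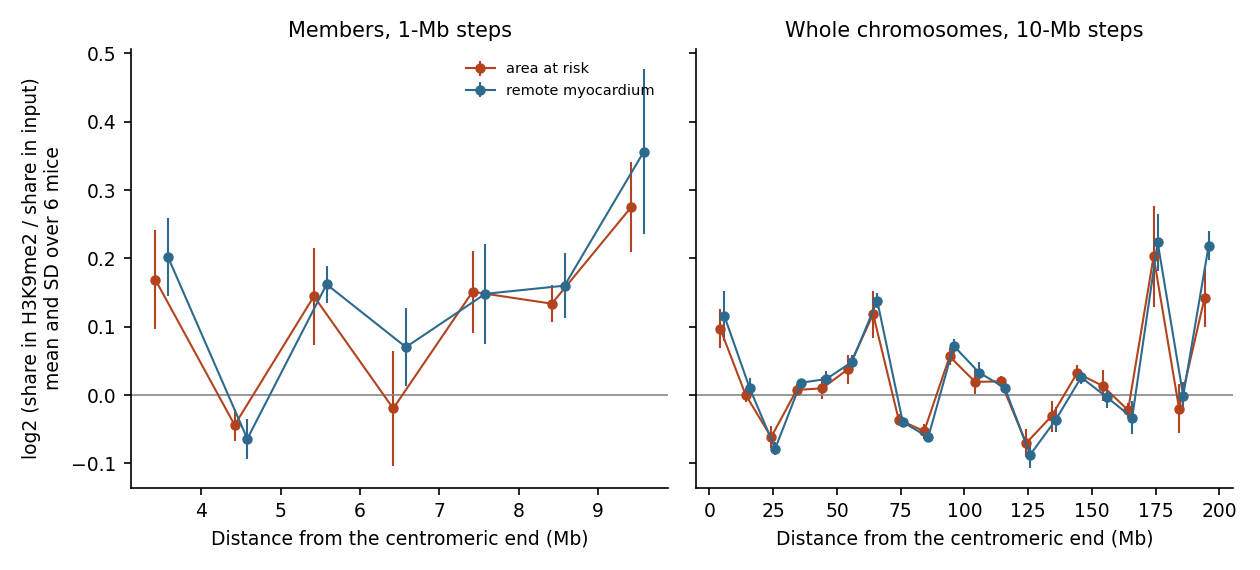
Log2 ratio of a step's share of counts in H3K9me2 to its share in input (mean and SD over 6 mice) by distance from the centromeric end, for members in steps of 1 Mb (left) and for all regions of the 16 chromosomes in steps of 10 Mb (right). The first 10 Mb stand at 0.097 in the area at risk and 0.12 in remote myocardium, and steps far from the centromere reach 0.20 and 0.22; steps from 160 Mb on hold 1 or 2 chromosomes.

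Chromosomes went opposite ways. To test single chromosomes, counts were summed over all 10-Mb windows of every chromosome and fitted with edgeR, a model of count data, over 269 windows. The first window of each of the 16 chromosomes holds exactly its members, and a window is called at an adjusted p under 0.05. In the area at risk, 3 of the 16 first windows were higher in H3K9me2 than in input (chromosomes 4, 6 and 18), where 22.3% of all windows were called higher. 3 were lower (chromosomes 7, 8 and 16), where 26.4% of all were. In remote myocardium, 8 first windows were higher (chromosomes 2, 3, 4, 5, 6, 10, 17 and 18), against 41.3% of all windows, and 3 were lower (chromosomes 7, 8 and 16), against 32.3% of all. Read against those backgrounds, first windows were called higher about as often as other windows. The median log2 fold change of the 16 was 0.054 in the area at risk and 0.073 in remote myocardium, against 0.017 and 0.024 over the 204 other windows of these chromosomes. With the mouse as replicate block, 5 first windows were higher in the area at risk, chromosomes 2 and 17 added. With libraries scaled to their totals, 7 were higher and 1 lower there; that scaling moved the median of all windows to 0.14, against 0.030 with TMM scaling, and to 0.18 against 0.055 in remote myocardium, where it gave 11 higher and 2 lower.

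The start of chromosome 7 was the most depleted. CPM are counts scaled to the library total after TMM adjustment, given as the lowest, median and highest of 6 mice. The 108 members of chromosome 7 held 1456, 1603 and 1900 CPM in H3K9me2 of the area at risk, against 1990, 2105 and 2172 CPM in input. In remote myocardium they held 1504, 1585 and 1675 CPM in H3K9me2, against 2089, 2139 and 2207 CPM in input. The groups do not overlap in either biopsy. The log2 fold change was -0.36 (SE 0.048, edgeR adjusted p = 0.000228) in the area at risk and -0.44 (SE 0.022, edgeR adjusted p = 1.13e-10) in remote myocardium. With library totals in place of TMM scaling it was -0.26 and -0.32, still called in both biopsies. This stretch is dense in genes: 73.1% of its members are gene ends and 2.78% intergenic. Among its genes are Tnni3 and Tnnt1, which encode troponin subunits. Set against the rest of chromosome 7 rather than all regions, members were lower in 6 of 6 mice in both biopsies, by a log2 ratio of -0.25 ± 0.068 and -0.30 ± 0.044 (SD, n = 6).

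Chromosome 16, with 54.1% gene ends among 159 members, was also lower, at -0.14 (SE 0.036, edgeR adjusted p = 0.00487) in the area at risk and -0.20 (SE 0.018, edgeR adjusted p = 4.22e-08) in remote myocardium. Its H3K9me2 libraries held 2250, 2564 and 2693 CPM in the area at risk, against 2724, 2759 and 2880 CPM in input, and 2368, 2430 and 2526 CPM in remote myocardium, against 2698, 2817 and 2839 CPM in input. The groups are apart in both biopsies. Chromosome 8 was lower by a smaller step, at -0.12 (edgeR adjusted p = 0.0114) and -0.15 (edgeR adjusted p = 0.000182). Its call in the area at risk was lost without mouse 22 (edgeR adjusted p = 0.0679) and without overlapping regions (edgeR adjusted p = 0.175). With library totals its calls were lost in both biopsies (-0.016 and -0.023), as was that of chromosome 16 in the area at risk (-0.040, and -0.075 in remote myocardium). Set against the rest of their own chromosomes, the members of chromosome 16 were lower in 6 of 6 mice, by a log2 ratio of -0.16 ± 0.10 and -0.22 ± 0.058, while those of chromosome 8 stood at 0.056 ± 0.066 and 0.062 ± 0.084, within their spread (SD, n = 6).

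The 3 chromosomes called higher in both biopsies were 6, 4 and 18. The 20 members of chromosome 6 held 380, 498 and 660 CPM in H3K9me2 of the area at risk, against 342, 387 and 432 CPM in input, and 455, 511 and 612 CPM in H3K9me2 of remote myocardium, against 331, 391 and 410 CPM in input. The ranges overlap in the area at risk and not in remote myocardium. The log2 fold change was 0.37 (SE 0.11, edgeR adjusted p = 0.0141) and 0.46 (SE 0.073, edgeR adjusted p = 2.66e-05). Chromosome 4 stood at 0.25 (edgeR adjusted p = 0.0151) and 0.27 (edgeR adjusted p = 0.000401), and without mouse 30 its call in the area at risk was lost (edgeR adjusted p = 0.0507). Without overlapping regions chromosome 4 stood at 0.16 in both biopsies. Chromosome 18, where 44.2% of the 86 members are intergenic, stood at 0.21 (SE 0.041, edgeR adjusted p = 0.00123) and 0.25 (SE 0.030, edgeR adjusted p = 1.24e-06). Its H3K9me2 libraries, at 1543 to 1855 CPM in the area at risk and 1557 to 1787 CPM in remote myocardium, all lay above the input libraries, at 1363 to 1492 CPM and 1334 to 1436 CPM. Chromosome 17, which holds the most members, was called higher in remote myocardium at 0.090 (SE 0.017, edgeR adjusted p = 0.000124) and stood at 0.060 in the area at risk (edgeR adjusted p = 0.117). Against the rest of chromosome 17 its members were higher in 6 of 6 mice, at 0.25 ± 0.062 and 0.30 ± 0.033 (SD, n = 6). Chromosome 12, the third in number, stood at 0.011 and 0.0093 and was called in neither biopsy. The chromosome 5 call of remote myocardium (edgeR adjusted p = 0.0328) was lost without mouse 17, 19, 23 or 30, at adjusted p-values of 0.0510, 0.106, 0.0748 and 0.0958, with median-of-ratios scaling (0.0597) and without overlapping regions (0.0788).

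Across the 16 chromosomes, a larger share of gene ends among members went with a lower log2 fold change (Pearson r = -0.61 and Spearman rho = -0.40 in the area at risk, r = -0.65 and rho = -0.53 in remote myocardium). The points share all 12 libraries of a biopsy, and the relation is given as a description. Chromosome 7, the lowest, has by far the most gene ends, at 73.1%, and the relation was not computed without it. Chromosome 6, the highest, has 45% gene ends. Leaving out chromosome 7 raised the summed log2 ratio of the members to 0.14 in the area at risk and 0.17 in remote myocardium.

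**Figure D3:**
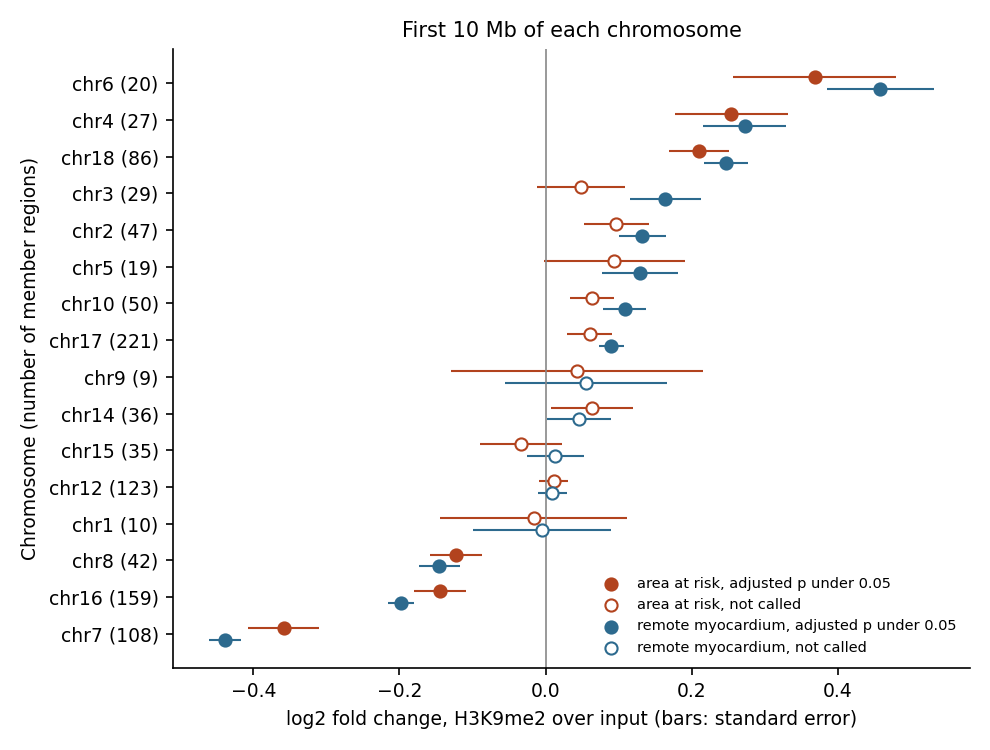
Log2 fold change of H3K9me2 over input (edgeR, bars are standard errors) for the first 10 Mb of each chromosome, area at risk above remote myocardium, ordered by remote myocardium; filled points have an adjusted p under 0.05. Chromosome 6 is highest, at 0.37 and 0.46, and chromosome 7 lowest, at -0.36 and -0.44.

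Single regions were then tested with edgeR across all listed regions, and the members read from that fit. Of the members, 741 passed the filter on low counts in the area at risk and 742 in remote myocardium. In the area at risk, 122 members (16.5%) were higher in H3K9me2 than in input, where 11.3% of all tested regions were called higher. 68 (9.18%) were lower, where 12.3% of all were. In remote myocardium, 207 members (27.9%) were higher, against 20.5% of all regions, and 114 (15.4%) were lower, against 20% of all. The member median was 0.093 in the area at risk, against 0.019 in the rest of the same chromosomes, and 0.090 in remote myocardium, against 0.017 in the rest. Of 728 members tested in both biopsies, 107 were higher in both (87.7% of those higher in the area at risk, 51.7% of those higher in remote myocardium), 58 were lower in both (85.3% and 50.9%) and 0 went opposite ways. Over all tested regions these shares were close by, at 81.6% and 45.3% for higher and 83.6% and 51.6% for lower. Without mouse 19, 68 members were called higher in the area at risk, and DESeq2 called 81 with all mice.

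The excess over the rest was largest between genes and near 0 at gene ends. Classes were pooled over the 16 chromosomes and not compared within them. Intergenic members are uneven among chromosomes, at 44.2% of the 86 on chromosome 18 and 2.78% of the 108 on chromosome 7. In the area at risk, 51 of 126 tested intergenic members (40.5%) were higher and 0 lower, against 24.5% higher and 3.19% lower among intergenic regions of the rest. In remote myocardium, 83 of 125 (66.4%) were higher and 2 lower, against 41.1% and 5.54% in the rest. The intergenic medians were 0.46 in members and 0.28 in the rest in the area at risk, and 0.59 and 0.33 in remote myocardium. Gene body members had medians of 0.14 and 0.11, against 0.055 and 0.066 in the rest. Gene ends had medians of -0.16 and -0.20, against -0.16 and -0.21 in the rest. Summed counts within a class gave the same order, with log2 ratios of 0.18 ± 0.066 and 0.22 ± 0.073 for intergenic, 0.097 ± 0.031 and 0.12 ± 0.031 for gene body and 0.030 ± 0.030 and 0.032 ± 0.021 for gene end members (SD, n = 6), each above 0 in 6 of 6 mice.

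Members with a CpG-rich window before a gene start, such as those printed above for Arid1b, Elavl1 and Ubald1, were depleted about as far as their counterparts in the rest. In the area at risk, 25 of 62 (40.3%) were lower and 2 (3.2%) higher, with a median of -0.49. In the rest, 49.2% were lower and 0.85% higher, with a median of -0.53. In remote myocardium, 35 of 64 (54.7%) were lower and 2 (3.1%) higher, with a median of -0.51, against 61.5%, 1.35% and -0.59. Members with only windows below that ratio had medians of -0.13 and -0.24, against -0.077 and -0.099 in the rest. Of these members 22.2% and 29.7% were lower, against 17.8% and 28.1% in the rest. Members without a whole window had medians of 0.15 and 0.18, against 0.055 and 0.062 in the rest. A region is CpG-rich here by its richest window, and the annotation used for classes gives no strand.

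**Figure D4:**
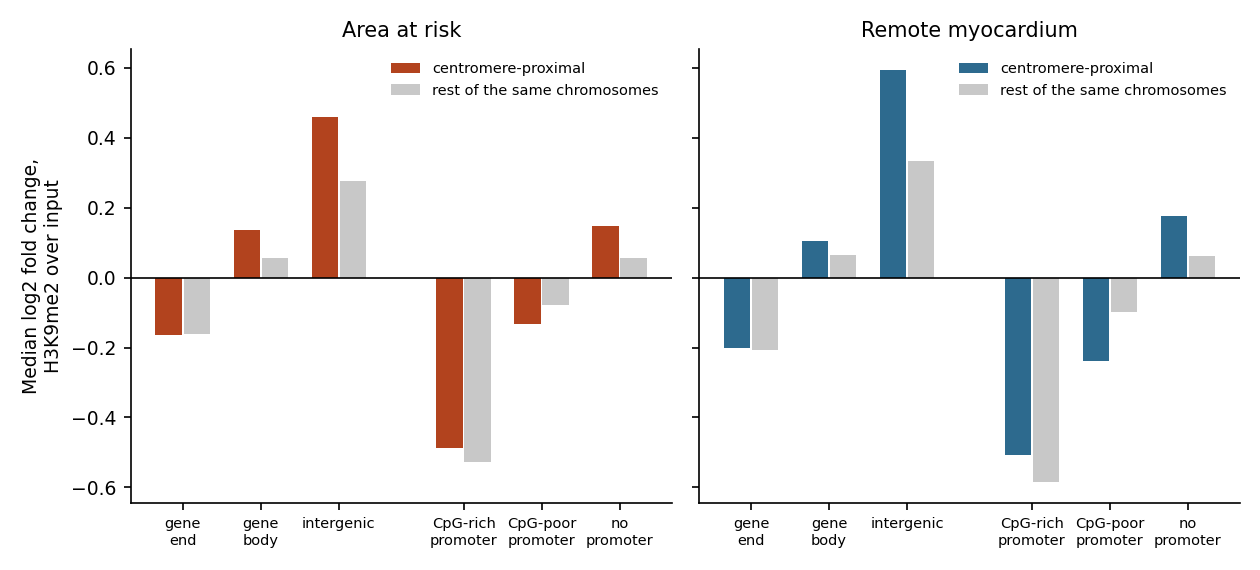
Median log2 fold change of H3K9me2 over input by region class (left of each panel) and by the sequence before gene starts inside the region (right), for centromere-proximal regions (colour) and the rest of the same chromosomes (grey). Intergenic members stand at 0.46 and 0.59, against 0.28 and 0.33 in the rest, and gene ends at -0.16 and -0.20, against -0.16 and -0.21.

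Regions are named below from called members at or above the median abundance of tested regions and with 1 sign in 6 mice, the 8 of largest fold change on each side. The deepest depletion among these lay on chromosome 7 between Ccdc106 (a coiled-coil protein) and U2af2 (a subunit of the splicing factor that recognises the end of introns), at chr7:5059400-5062999. It held 2.48, 9.996 and 13.7 CPM in H3K9me2 of the area at risk, against 24.7, 30.8 and 36.8 CPM in input (lowest, median and highest). In remote myocardium it held 5.13, 8.82 and 12.8 CPM in H3K9me2, against 26.4, 36.0 and 37.6 CPM in input. All H3K9me2 libraries lay below all inputs. The log2 fold change was -1.64 (SE 0.22, edgeR adjusted p = 2.81e-07) and -1.87 (SE 0.21, edgeR adjusted p = 7.86e-14). Some way along the same chromosome, the region shared by U2af2 and Epn1 (an endocytic adaptor) at chr7:5079800-5083999 stood at -0.89 in the area at risk (edgeR adjusted p = 0.000112) and -0.61 in remote myocardium (edgeR adjusted p = 0.00127). The region of Eps8l1 (an actin regulator) and Ppp1r12c (a myosin phosphatase subunit) at chr7:4478200-4485399, which overlaps another region, stood at -0.70 (edgeR adjusted p = 0.00209) and -1.13 (edgeR adjusted p = 5.44e-09).

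At the start of Arid1b, whose CpG-dense window is printed above, chr17:4993800-4996599 held 7.54, 9.47 and 17.4 CPM in H3K9me2 of the area at risk, against 19.9, 28.0 and 32.02 CPM in input. In remote myocardium it held 6.41, 9.22 and 14.6 CPM in H3K9me2, against 26.1, 32.5 and 35.6 CPM in input. The groups do not overlap, and the log2 fold change was -1.45 (SE 0.23, edgeR adjusted p = 3.86e-06) and -1.65 (SE 0.21, edgeR adjusted p = 2.16e-11). Of 28 tested Arid1b regions in the area at risk and 29 in remote myocardium, it was the only one called lower. The Elavl1 region at chr8:4323800-4326199, shared with Ccl25 (a chemokine), held 7.63, 8.50 and 18.7 CPM in H3K9me2 of remote myocardium, against 24.9, 28.1 and 29.6 CPM in input (log2 fold change -1.38, edgeR adjusted p = 3.54e-08), and stood at -0.57 in the area at risk (edgeR adjusted p = 0.0414). Ubald1, at chr16:4875600-4880999, stood at -1.17 (edgeR adjusted p = 1.07e-06) in the area at risk and -0.93 (edgeR adjusted p = 4.11e-08) in remote myocardium. Its H3K9me2 libraries ran from 9.43 to 27.8 CPM and from 20.9 to 32.05 CPM, below all inputs, at 39.5 to 55.0 CPM and 45.8 to 59.2 CPM. Other strong depletions were at Rdh13 (a mitochondrial retinol dehydrogenase, -0.81 in the area at risk), Lrrc8e and Map2k7 (a volume-regulated anion channel subunit and a kinase that activates JNK, -0.78), Coro7 and Vasn (a Golgi coronin and a TGF-beta binding protein, -0.72), and Mgrn1 (a ubiquitin ligase, -1.25 in remote myocardium). The other biopsy gave less in each of these: remote myocardium stood at -0.53 at Rdh13, -0.50 at Lrrc8e and -0.32 at Coro7, the last with no call, and the area at risk at -0.42 at Mgrn1, also with no call.

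Of the 8 enriched members of largest fold change in each biopsy, chosen as above, 5 in the area at risk and 6 in remote myocardium lie between genes. Among all members called higher, 51 of 122 in the area at risk and 83 of 207 in remote myocardium were intergenic. The largest of the 8 in remote myocardium was at chr17:4642600-4644799, 5123 bases from the noncoding gene 4930517M08Rik. It held 22.8, 35.9 and 52.1 CPM in H3K9me2 of the area at risk, against 15.1, 17.7 and 32.3 CPM in input, and 29.1, 39.3 and 47.3 CPM in H3K9me2 of remote myocardium, against 11, 16.7 and 23.1 CPM in input. The groups overlap in the area at risk through 1 high input library, mouse 27, and are apart in remote myocardium. The log2 fold change was 0.83 (SE 0.20, edgeR adjusted p = 0.0014) and 1.14 (SE 0.17, edgeR adjusted p = 8.38e-09). The largest of these in the area at risk was at chr16:9388200-9390999, with no gene nearer than 97635 bases, at 0.95 (SE 0.21, edgeR adjusted p = 0.000792). It held 27.4, 37.3 and 56.6 CPM in H3K9me2, against 11.7, 18 and 37.1 CPM in input, and these ranges overlap. Remote myocardium stood at 0.88 in this region (edgeR adjusted p = 2.95e-06).

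Within genes, Klhl29 (a kelch-like protein) was named in both biopsies. Its region at chr12:5230200-5233399 held 30.5, 43.0 and 59.5 CPM in H3K9me2 of the area at risk, against 18.2, 23.4 and 29.7 CPM in input, and 37.2, 40.7 and 71.7 CPM in H3K9me2 of remote myocardium, against 19.0, 22.0 and 26.0 CPM in input. All H3K9me2 libraries lay above all inputs of the same biopsy. The log2 fold change was 0.80 (edgeR adjusted p = 0.000491) and 1.00 (edgeR adjusted p = 2.19e-08). Fam110b, a centrosome-associated protein, stood at 1.01 in remote myocardium (chr4:5662800-5665799, edgeR adjusted p = 1.51e-08) and 0.74 in the area at risk (edgeR adjusted p = 0.00527). Zdhhc14, a palmitoyltransferase, stood at 0.78 in the area at risk (edgeR adjusted p = 0.000508) and 0.70 in remote myocardium (edgeR adjusted p = 4.65e-06). The region of LOC115490388, a gene end, at chr6:3182400-3184999, held 60.7, 83.5 and 147 CPM in H3K9me2 of the area at risk, against 37.3, 53.1 and 58.2 CPM in input. Every H3K9me2 library there lay above every input, and the log2 fold change was 0.79 (SE 0.14, edgeR adjusted p = 3.28e-05). Remote myocardium stood at 0.55 in this region (edgeR adjusted p = 3.14e-05).

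**Figure D5:**
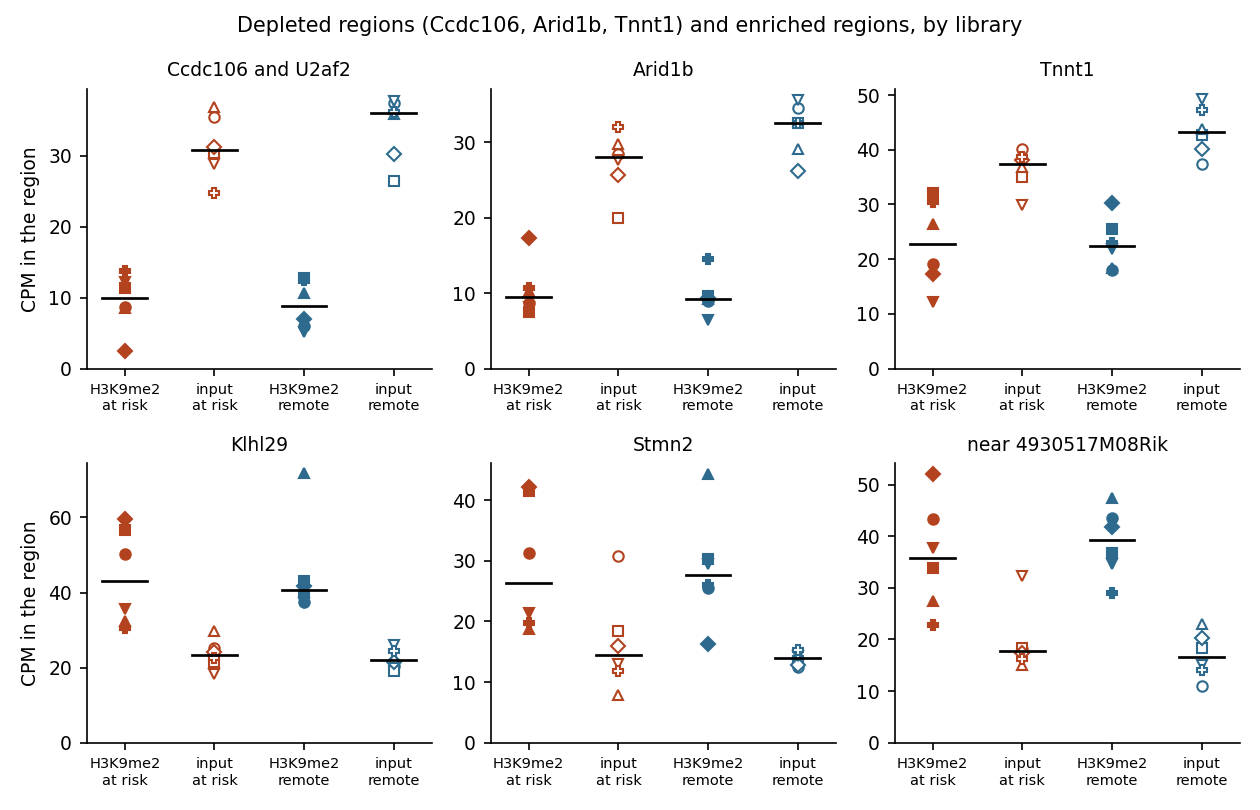
CPM in 6 member regions, 1 symbol per mouse as in the plot of shares, black bars at medians, with H3K9me2 (filled) left of input (open) for each biopsy. Ccdc106 with U2af2, Arid1b and Tnnt1 (top) are lower in H3K9me2, for example 9.996 against 30.8 CPM at Ccdc106 in the area at risk, and Klhl29, Stmn2 and the region near 4930517M08Rik (bottom) are higher.

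Gene lists of the stretch were read by counting, for each gene, whether any of its tested members was called. Counted the same way over all listed regions, 30.1% of 16708 tested genes had lower regions only and 13.3% higher ones only in the area at risk, and 38.5% and 21.1% of 16685 in remote myocardium. Genes with a member region numbered 374 and 379, with 22.5% and 30.1% lower only and 16.3% and 20.8% higher only. By the region of smallest p, the median over all tested genes was -0.22 and -0.26. Over genes with a member region it was -0.17 and -0.082. All tested genes had a mean of 2.61 and 2.60 regions each, and a gene with more regions has more chances of a call. Against these values the lists below are small, and nothing is read as particular to them. Among 13 tested genes of heart muscle and metabolism, 5 had lower members only, 1 had higher ones only and 7 had none called in the area at risk; in remote myocardium 4 had lower only, 1 higher only, 2 both (Svil and Adcy9) and 6 none. With each gene given by its region of smallest p, the list median was -0.52 and -0.40, and over all 50 of its regions it was 0.014 and -0.055, against 0.011 and 0.0087 over all tested regions. Tnnt1, which encodes the slow skeletal troponin T, had 3 of 3 regions lower in the area at risk and 2 of 3 in remote myocardium. Its region at chr7:4511600-4515799 held 12.2, 22.8 and 32.1 CPM in H3K9me2 of the area at risk, against 29.9, 37.5 and 40.2 CPM in input, and 18, 22.3 and 30.2 CPM in H3K9me2 of remote myocardium, against 37.4, 43.2 and 49.3 CPM in input. The groups overlap in the area at risk and are apart in remote myocardium, at -0.68 (edgeR adjusted p = 0.00406) and -0.96 (edgeR adjusted p = 2.17e-07). Tnni3, the adult cardiac troponin I, stood at -0.52 (edgeR adjusted p = 0.0247) and -0.69 (edgeR adjusted p = 0.000852) at chr7:4516400-4520199, a region that Tnnt1 shares. Its call in the area at risk was lost by DESeq2 (-0.52) and without mouse 19, 22 or 23 (-0.47, -0.50 and -0.48).

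Oxct1, the enzyme that activates ketone bodies for oxidation, was lower in the area at risk at -1.08 (edgeR adjusted p = 0.00335) and stood at -0.50 in remote myocardium (edgeR adjusted p = 0.0642), where it passed without mouse 19 (-0.69) or 22 (-0.60) and without overlapping regions (-0.55). Prkaa1, a catalytic subunit of AMP-activated kinase, was lower in remote myocardium at -0.91 (edgeR adjusted p = 0.00272) and stood at -0.59 in the area at risk (edgeR adjusted p = 0.0917), where it passed without mouse 22 (-0.77). These pairs of values were not tested against each other. Adcy9, an adenylate cyclase, had a gene body region at -0.89 (edgeR adjusted p = 0.0112) and -1.21 (edgeR adjusted p = 1.38e-05), with another of its 5 regions higher in remote myocardium; that of the area at risk was lost without mouse 17 (-0.71) or 27 (-0.73). Adcy3, another adenylate cyclase, had higher regions only in both biopsies, with 1 and 2 of 6 called, and the region of smallest p differed. In the area at risk it was chr12:4205800-4208999, which overlaps another region, at 0.51. In remote myocardium it was chr12:4167600-4169999, at 0.64. The call in the area at risk was lost without mouse 22, 27 or 30 (0.49, 0.45 and 0.45).

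Chromatin and transcription regulators came next. Of 13 tested in the area at risk, 6 had lower members only, 1 higher only and 6 none; of 14 in remote myocardium, 8 had lower only, 0 higher only, 2 both and 4 none. With the mouse as replicate block, genes with any higher member in the area at risk were 2 here, 3 among heart muscle and metabolism genes and 2 among the signalling genes below, against 1 in each without it. The list median was -0.59 and -0.76 by the region of smallest p and 0.046 and -0.042 over all of its 68 and 70 regions. Nipbl, which loads cohesin, was lower at -1.45 (edgeR adjusted p = 1.23e-05) and -0.93 (edgeR adjusted p = 0.000188) at chr15:8443800-8446399. It held 2.48, 9.28 and 13.9 CPM in H3K9me2 of the area at risk, against 18.8, 26.1 and 29.3 CPM in input, and these ranges do not overlap. Chd7, a chromatin remodeller mutated in CHARGE syndrome, was lower at -1.39 (edgeR adjusted p = 0.000807) and -1.42 (edgeR adjusted p = 1.14e-05). In remote myocardium Chd7 also had 2 higher regions and Arid1b 1, the pair counted above as both. Dnmt3a had 4 of 15 regions lower in the area at risk and 5 of 15 in remote myocardium, and none higher. The region holding its printed window, chr12:3891200-3893599, held 7.54, 13.9 and 24.5 CPM in H3K9me2 of the area at risk, against 22.9, 27.1 and 33.5 CPM in input, at -0.95 (edgeR adjusted p = 0.00119). Those ranges overlap, and remote myocardium stood at -0.25 there (edgeR adjusted p = 0.327). Zeb1, a zinc finger repressor of epithelial genes, was lower at -0.99 (edgeR adjusted p = 0.00138) and -0.88 (edgeR adjusted p = 0.000605). Asxl2, a Polycomb-associated protein, was lower at -1.43 in remote myocardium (edgeR adjusted p = 4.83e-05). Kmt5c, a methyltransferase for H4 lysine 20, was the list's higher gene in the area at risk, at 0.40 (edgeR adjusted p = 0.0292), a call lost by DESeq2 (0.41) and without mouse 17, 22, 27 or 30 (0.36, 0.39, 0.32 and 0.39).

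Of the neuronal genes silent in heart, few were measured. Of 6 tested, 3 had higher members only and 3 none in the area at risk, and 3 had higher only, 1 lower only, 1 both and 1 none in remote myocardium. Genes with any lower member there were 1 with the mouse as replicate block and 1 by DESeq2. The list median was 0.53 and 0.69 by the region of smallest p and 0.30 and 0.35 over its 17 regions. Stmn2, a microtubule regulator of growing axons, held 18.8, 26.3 and 42.2 CPM in H3K9me2 of the area at risk at chr3:8553800-8555799, against 7.95, 14.4 and 30.8 CPM in input. In remote myocardium it held 16.3, 27.7 and 44.3 CPM in H3K9me2, against 12.5, 13.96 and 15.3 CPM in input. The ranges overlap in the area at risk and are apart in remote myocardium, at 0.80 (edgeR adjusted p = 0.0113) and 1.06 (edgeR adjusted p = 1.58e-06). The call in the area at risk was lost without mouse 19 (0.72) or 22 (0.71). Pde10a, a striatal phosphodiesterase, was higher at 0.79 (edgeR adjusted p = 0.00421) and 0.84 (edgeR adjusted p = 5.16e-05) in 1 of its gene body regions (3 of 10 were higher and 1 lower in remote myocardium), and without mouse 27 the area at risk gave 0.62 and no call. Dync1i1, a dynein chain of neurons, was higher in remote myocardium at 1.25 (edgeR adjusted p = 1.03e-07) and stood at 0.48 in the area at risk (edgeR adjusted p = 0.161), where it passed without mouse 22 (0.72).

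The imprinted cluster of chromosome 6, where 1 parental copy is silent, gave 3 tested genes. Ppp1r9a, a neuronal actin-binding protein, was higher at 0.70 (edgeR adjusted p = 0.0229) and 0.51 (edgeR adjusted p = 0.0356) in the area at risk and remote myocardium. The call of the area at risk was lost without mouse 17, 19, 22 or 27 (0.63, 0.55, 0.62 and 0.71), and that of remote myocardium was lost by DESeq2 (0.52), without overlapping regions (0.46) and without mouse 23, 27 or 30 (0.26, 0.43 and 0.53). Peg10, a retrotransposon-derived gene, and Sgce, a sarcoglycan, share 1 region, which stood at -0.36 (edgeR adjusted p = 0.140) and 0.30 (edgeR adjusted p = 0.187), the value of remote myocardium passing without mouse 30 (0.49). With that region counted for both genes, the list median was -0.36 and 0.30.

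Among 12 tested genes of hormone, growth factor and Hippo signalling, 3 had lower members only, 1 higher only and 8 none in the area at risk, and 4 lower only, 2 higher only and 6 none in remote myocardium. The list median was -0.22 and -0.29 by the region of smallest p and 0.062 and -0.013 over its regions. Yap1, the coactivator at the end of the Hippo pathway, was lower at -0.83 (edgeR adjusted p = 0.00885) and -1.02 (edgeR adjusted p = 0.000231), and Lats1, the kinase that restrains it, at -0.78 (edgeR adjusted p = 0.0117) and -0.89 (edgeR adjusted p = 0.000468). In the area at risk the Yap1 call was lost without mouse 22 (-0.66) or 23 (-0.70) and the Lats1 call without mouse 27 (-0.67) or 30 (-0.67). Rictor, the scaffold of the second mTOR complex, was lower at -0.96 (edgeR adjusted p = 0.0016) and -0.57 (edgeR adjusted p = 0.0200); the remote call was lost by DESeq2 (-0.57) and without mouse 17 (-0.52) or 23 (-0.46). Rps6ka2, a ribosomal S6 kinase, was higher at 0.76 (edgeR adjusted p = 0.00495) and 0.70 (edgeR adjusted p = 0.00258), and without mouse 22 remote myocardium gave 0.50 and no call. Of 5 tested immune genes, Nlrc3, a NOD-like receptor that dampens inflammation, was higher in both biopsies, at 0.60 (edgeR adjusted p = 0.0131) and 0.86 (edgeR adjusted p = 1.38e-06), and the other 4 had no call. Without mouse 23 the area at risk gave 0.47 and no call for Nlrc3. The list median was 0.13 and 0.10 by the region of smallest p and 0.23 and 0.28 over its regions.

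Between the biopsies no member was called. H3K9me2 of the area at risk against remote myocardium gave 0 called of 561 tested members, where 0% of all tested regions were called, with 25 members (4.46%) at an unadjusted edgeR p under 0.05 against 4.04% of all regions. DESeq2 called 0, with 6 members under that p. The input-corrected difference, the log2 fold change over input in the area at risk minus that in remote myocardium, gave 0 of 788, with 32 (4.06%) under that p against 4.07% of all, and all regions again had 0% called. The inputs gave 0 of 784, with 21 (2.68%) under that p against 2.72% of all, also at 0% called, and DESeq2 gave 0 called and 11 under that p. Of the 16 first windows, 0 were called or had an unadjusted edgeR p under 0.05 in any of these contrasts. The median standard error of a member was 0.21 for H3K9me2 between biopsies and 0.29 for the input-corrected difference, so differences of small size were not detectable at this depth.

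The member of smallest p was the Mgrn1 region at chr16:4937000-4944399, which also covers Nudt16l1 and Anks3 and overlaps another region. In H3K9me2 it held 10.3, 27.7 and 49.6 CPM in the area at risk, against 10.7, 12.9 and 23.4 CPM in remote myocardium, ranges that overlap, at a log2 fold change of 0.88 (SE 0.25, edgeR adjusted p = 0.999). Its input-corrected difference was 0.83 (SE 0.28, edgeR adjusted p = 1.00). On the lower side, Ppl, which encodes a cytolinker of cornified skin, stood at -0.51 (edgeR adjusted p = 0.999), and Acox2, a peroxisomal bile acid oxidase, had an input-corrected difference of -0.75 (edgeR adjusted p = 1.00). The remaining members named by the same rule lay between -0.67 and 0.58 apart from Zfp704, a zinc finger protein, at 1.50 for the input-corrected difference, where counts are low (medians of 11.6 CPM in H3K9me2 and 8.15 CPM in input of the area at risk).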

How the data were processed

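The authors deposited 4 tables of counts, whole numbers of reads per region and library over the same regions of mm10, with 12 libraries each; the values are whole numbers throughout. The submitters' processing notes list Bowtie2 2.2.2, SICER 1.1 and edgeR and give no role for them; the counting rule and the handling of duplicates are not given in the sources used here. Chromatin was digested with enzyme and libraries were amplified by PCR, per the labels' protocols, so counting error is a lower limit of the error. Total counts in the listed regions went from 416683 to 1196368 in H3K9me2 and from 1286383 to 2478668 in input for the area at risk. Remote myocardium had 443261 to 981763 and 1405503 to 1770520; reads outside the regions are unknown. Libraries are scaled with TMM factors applied to their totals over the tested regions, so a change alike in all regions cannot be seen.

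Each contrast was fitted to all regions and to sums over 10-Mb windows by region end with edgeR 4.0.16 (R 4.3.3): TMM scaling, filterByExpr, two-sided quasi-likelihood test, Benjamini-Hochberg FDR 0.05. Every adjusted p is from these fits. DESeq2 1.42.0 was the other tool. Summed shares were compared per mouse without a test. Genes and gene starts came from RefSeq (GRCm38.p6), with 2 kb of flank for classes. Named regions were, per input contrast, the 8 called members of largest fold change on each side with abundance at or above the median of tested regions and 1 sign in 6 mice, and, per biopsy contrast, the 3 of smallest p on each side, besides genes of 6 lists. Members, lists and tests were chosen with earlier results of these data known. The fits were tested on simulated data.

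Libraries with 1 mouse number come from 1 animal, which is where the pairing comes from. Deviations of same-numbered libraries from their group means correlated from -0.015 to 0.17 between H3K9me2 and input (area at risk), from 0.0031 to 0.085 (remote myocardium), and from -0.18 to 0.055 between the H3K9me2 libraries. The alternatives tried were a replicate block for mouse, scaling by median-of-ratios or by library totals, DESeq2, no filter, no overlapping regions, FDR 0.01, a minimum log2 fold change of 0.5, other limits, each mouse or chromosome left out and equal weight per chromosome. The values of 1 gene of the neuronal list are not reported here.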

Additional observations from a re-analysis of the deposited data

Results flagged for a closer look

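In 9 of 114 groups of 6 values examined, 1 mouse stood apart from the rest of its group by Dixon's criterion (gap over range above 0.625), which chance alone meets in about 1 group in 20. The members of chromosome 17 had a log2 ratio against the rest of that chromosome of 0.375 in the area at risk of mouse 19, above the other 5 mice. Those of chromosome 2 had 0.4231 in the area at risk of mouse 30, again the highest. Mouse 23 supplied 4 of the flags. In its area at risk the input of the LOC115490388 region was low at 37.26 CPM and that of the Eps8l1 region high at 46.47 CPM. In its remote myocardium H3K9me2 was high at Klhl29, at 71.73 CPM, and in the intergenic region near Ccl25, at 53.41 CPM. Input of the area at risk of mouse 27 was high near 4930517M08Rik, at 32.3 CPM. H3K9me2 was high at Elavl1 in remote myocardium of mouse 30, at 18.71 CPM, and at Ppl in the area at risk of mouse 17, at 57.66 CPM. The part of depth or of single libraries in these values was not tested.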

How the results depend on the processing

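Counts of members higher than input in the area at risk were the least stable: 122 in the fit reported, 81 by DESeq2, 46 at FDR 0.01 and 68 to 117 with each mouse left out. Members lower there numbered 68, and 37 at FDR 0.01. First windows of the area at risk were 3 higher and 3 lower, 5 higher with the replicate block, and 7 higher and 1 lower with library totals. Beside these and the gene counts of the lists named above, the neuronal list among them, the block moved no count by over 1.5 times. Among single regions it added 1 call, Svil in the area at risk (0.50). The summed log2 ratio, 0.099 in the area at risk and 0.12 in remote myocardium, was 0.046 and 0.048 with the limit at 5 Mb, 0.039 and 0.052 at 20 Mb, 0.14 and 0.17 without chromosome 7, 0.16 in remote myocardium without chromosome 16, and 0.16 there with chromosomes weighted equally. Leaving out the 2 densest members, an alternative chosen after seeing the data, gave 0.091 and 0.11. The member median minus that of the rest, 0.074 and 0.073, was -0.0017 and 0.0031 among gene ends, 0.18 and 0.26 among intergenic regions, 0.027 and -0.0062 at 5 Mb, 0.028 and 0.017 at 20 Mb, and lay between 0.070 and 0.11 for the area at risk with each mouse left out. The window fits between biopsies were also added after seeing the data. Of 1230 values under alternatives for 104 results (a named region in 1 contrast), 1167 kept direction and side of the threshold, 53 lost the call, 10 gained one and 0 changed sign. Counts per region are low, so single calls rest on 6 mice and few reads.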
